A study of Homo sapiens with 28 samples.

Results

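DNA methylation is written and copied by DNA methyltransferases and is removed by a route that begins with the TET enzymes. The m6A peaks on chromatin-associated RNA (caRNA) of 7 genes of this system were examined: DNMT1, UHRF1, DNMT3A, DNMT3B, TET1, TET2 and TET3. They were chosen by name and role, not by a measured value, out of 20033 protein-coding genes, of which 12628 had at least 1 peak on their own strand. A peak was given to a gene when its summit, the base with the most immunoprecipitated fragments, lay between 1000 bases upstream of the gene start and the gene end. By this rule 493 of the 496678 peaks in 14 lists lay on the strand of a member. Peaks that overlapped between libraries were merged, which gave 70 member regions of 86481 in all, numbered in each gene from its start.

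The data come from MeRIP-seq, in which fragments carrying N6-methyladenosine (m6A) are enriched with an antibody and sequenced, performed on RNA of the chromatin fraction after depletion of ribosomal RNA. The study asked how RBFOX2, an RNA-binding protein, relates to m6A on caRNA. Each of the 14 immunoprecipitated libraries had 1 deposited peak list. The 6 groups were wild-type HepG2, a human hepatoma line (2 libraries), wild-type K562, a chronic myelogenous leukaemia line (2), K562 Control (2), K562 RBFOX2 KD (2), NB4 Control (3) and NB4 RBFOX2 KD (3), NB4 being an acute promyelocytic leukaemia line. The labels name the Control cells only as such. By the study's methods the knockdown (KD) was made with a lentiviral short hairpin RNA and its control with a non-targeting hairpin, so K562 Control differs from K562 WT at least by the virus. Labels do not say that replicates were separate cultures, so each p-value measures only the spread between these libraries. Every group is a single cell line, and NB4 has no WT library, so line and library series cannot be told apart for NB4.

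DNMT1 restores methylation on the new strand after replication, and UHRF1 recognises hemimethylated DNA and brings DNMT1 to it. DNMT3A and DNMT3B place methyl groups on unmethylated sites, and TET1, TET2 and TET3 oxidise 5-methylcytosine, the first step of its removal. DNMT3A and TET2 are often mutated in myeloid leukaemia. On RNA, m6A is deposited during transcription at short motifs called DRACH, and is known to be frequent in long internal exons and near stop codons.

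The lists held 22700 to 44088 peaks, and the sequencing depth recovered from the peak heights was 10.8 to 32.9 times 1000000 reads per library. A peak needs both RNA and m6A, so less RNA and less methylation cannot be told apart, and a region missing from a list may have fallen below detection. Line identity was checked by the presence of peaks on marker genes: of 7 hepatocyte markers 2 had a peak in every HepG2 library, 3 in 1 of them and 0 in any K562 or NB4 library, 5 of 7 erythroid markers had one in every K562 library, and 5 of 7 promyelocyte markers in every NB4 library. Of the erythroid markers 1, EPOR, also had a peak in every HepG2 and NB4 library, and GATA1 had one in the 3 NB4 RBFOX2 KD libraries. Of the promyelocyte markers CSF3R had a peak in both HepG2 and both K562 WT libraries and AZU1 in both K562 WT libraries. RBFOX2 itself had 2 and 3 peaks in K562 Control and 3 and 3 in K562 RBFOX2 KD, and 1 to 2 in each NB4 library. Peak lists give no RNA level, so the knockdown could not be checked here.

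Each region below is represented by 29 bases around the DRACH motif taken from its strongest peak, read from the hg38 genome on the strand of the gene, with the 5 letters of the motif in capitals. The strongest peak need not have its summit where most libraries have theirs. Its summit lies in intron 1 for DNMT3B region 1, at 822 bases past the stop codon for UHRF1 region 5, and at 5323 bases before the stop codon for TET3 region 1. The DNMT1, UHRF1 and DNMT3A regions shown were the strongest of the gene, or were listed throughout 1 group and in no library of another.
DNMT1 region 10, chr19:10151590-10151618, minus strand: ctgttatgaagaAAACAgccccggttggt
DNMT1 region 12, chr19:10140936-10140964, minus strand: caaggtggacttGGACTctgaggatcggg
UHRF1 region 3, chr19:4951907-4951935, plus strand: agacgaatcgtgAGACTatttaaggaatc
UHRF1 region 5, chr19:4961644-4961672, plus strand: accagattctagAAACTgcggtcatccag
DNMT3A region 11, chr2:25242169-25242197, minus strand: gcacagagctggGGACTcatagcggaggg
DNMT3A region 12, chr2:25234261-25234289, minus strand: cgtgtgtgtaagGGACAtgggggcaaact
The DNMT3B and TET windows below belong to the strongest region of each gene and to other regions described below.
DNMT3B region 1, chr20:32762829-32762857, plus strand: tcgccgggttggAGACCcggctgggtttg
TET1 region 2, chr10:68572380-68572408, plus strand: gaaggaagatgtAAACAaaaaaaagaaaa
TET1 region 8, chr10:68691547-68691575, plus strand: ttaccagcacaaAAACCtaaataagcccc
TET2 region 4, chr4:105235441-105235469, plus strand: tgtgttctgagaAAACAagaccaatgtca
TET3 region 1, chr2:73986445-73986473, plus strand: gccaggcctttaTGACTtccctcagcgcc
TET3 region 5, chr2:74031090-74031118, plus strand: caaggaaaaaggAAACTttggggctgttg
TET3 region 17, chr2:74101585-74101613, plus strand: ggagaagctgtgGGACCccttcagcctgg

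The motif was searched for on the strand of the peak in a window of 50 bases on each side of the summit. A DRACH motif (A, G or T, then A or G, then AC, then A, C or T) was present in 64 of 70 member regions, 91.4%, against 89.98% of all 86481 regions. One of its forms, GGACT, was present in 11 member regions, 15.7%, against 17.03% of all. Of the 12 member regions listed in all 14 libraries, 12 held a DRACH motif and 0 held GGACT, while 21.7% of all 7708 regions listed in 14 libraries held GGACT. These are matches of letters in a window and say nothing about which base was methylated.

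All 7 genes carried more peaks than the median gene. Summed over the 14 libraries, TET3 had 123 peaks, TET1 91, TET2 83, UHRF1 55, DNMT1 50, DNMT3A 50 and DNMT3B 41, against a median of 20 over genes with a peak. TET3 stood above 97.4% of those genes, TET1 above 94.4% and DNMT3B above 76.0%. Summed over the members, the lists held 24 and 31 peaks in HepG2 WT, 32 and 31 in K562 WT, 34 and 35 in K562 Control, 31 and 28 in K562 RBFOX2 KD, 37, 40 and 36 in NB4 Control, and 50, 40 and 44 in NB4 RBFOX2 KD. NB4 libraries held the most member peaks and HepG2 WT replicate 1, with the shortest list, held the fewest.

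**Figure D1:**
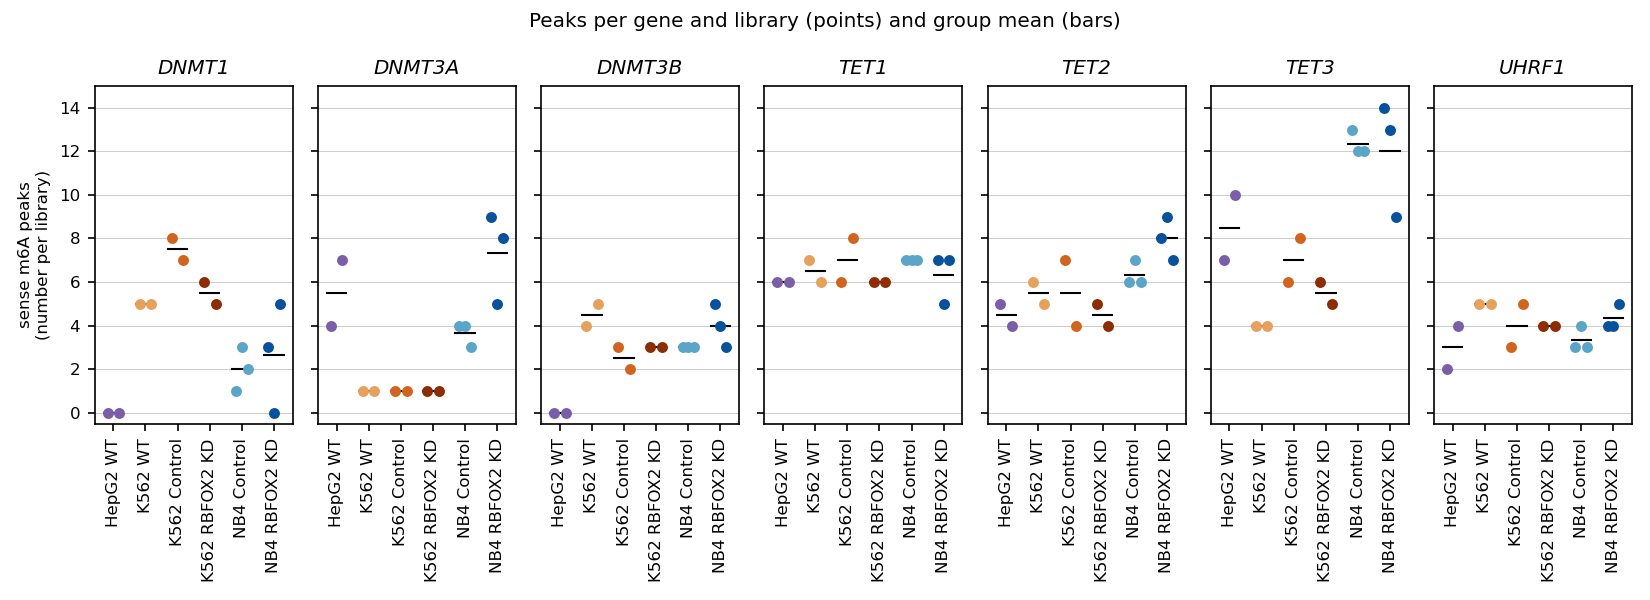
Number of m6A peaks on the strand of each of the 7 genes (vertical axis) by group (horizontal axis), 1 point per library and a bar at each group mean. DNMT1 and DNMT3B had 0 peaks in both HepG2 libraries, DNMT3A had 1 in each of the 6 K562 libraries, and TET3 reached 9 to 14 in NB4.

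The members differed in where along the transcript their peaks lay. Within the canonical transcript, 47.3% of member peaks fell in coding sequence, against 28.6% of the 385417 peaks in all protein-coding genes, and 32.3% in introns against 43.6%. TET2 had 89.2% and TET1 79.1% of peaks in coding sequence. DNMT3B had 0% there, with 51.2% in introns and 34.1% in the 5′ UTR, and DNMT3A had 34.0% in the 3′ UTR. Among peaks in internal exons, the median exon was 2134 bases long for the members and 505 bases for all genes, and 63.0% of the members' peaks against 25.3% of all lay in internal exons over 1000 bases. That share came from the TET genes: 96.6% for TET1, 96.0% for TET2 and 56.4% for TET3, against 0% for DNMT1, DNMT3A, DNMT3B and UHRF1, whose longest internal exons are 283, 271, 222 and 255 bases.

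Some summits recurred across lines. When summits within 150 bases of each other were chained, the members had 99 positions, of which 16 were found in at least 10 libraries, 5 in all 14 and 24 in 1 library. TET3 had 5 of these 16 positions, TET1 4, UHRF1 3 and DNMT1 0. Spans could be a few bases: a UHRF1 coding position 2377 bases before the stop codon was shared by 13 libraries within 3 bases, and a TET3 position 4638 bases before the stop codon by 12 libraries within 5 bases.

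Among the maintenance genes, DNMT1 (chr19:10133342-10231286, minus strand) had no peak in HepG2 and most in K562. It had 0 and 0 peaks in HepG2 WT, 5 and 5 in K562 WT, 8 and 7 in K562 Control, 6 and 5 in K562 RBFOX2 KD, 1, 3 and 2 in NB4 Control and 3, 0 and 5 in NB4 RBFOX2 KD. K562 Control libraries were above all others, and the 2 NB4 groups overlapped. Of its 12 regions, 0 were listed in all libraries and 5 in only 1. Its regions 1, 2 and 3 lie upstream of its canonical transcript. They also lie in S1PR2, a gene on the same strand, so those reads cannot be assigned to DNMT1 with certainty. The 9 peaks there, of 50, are kept in the DNMT1 counts.

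The strongest DNMT1 region was region 12 (chr19:10139726-10141113), which runs from intron 31 over exons 32 and 33. Its fold over local background at the summit was 5.02 and 4.85 in K562 WT, 15.6 and 6.30 in K562 Control, 11.5 and 8.89 in K562 RBFOX2 KD, 1.75 and 4.02 in NB4 Control 1 and 2, and 3.17 and 2.50 in NB4 RBFOX2 KD 1 and 3. The remaining NB4 libraries and HepG2 did not list it, and the K562 values all exceeded those of NB4. In NB4 the local background at this place was 5.21 to 19.2 times the genome mean, against 1.22 to 3.42 in K562. Region 10, in intron 23 with a summit near exon 24, had folds of 2.59 and 5.06 in K562 WT, 10.1 and 5.99 in K562 Control, 3.88 and 4.12 in K562 RBFOX2 KD, and 2.06 in NB4 RBFOX2 KD 3. Both K562 Control values lay above both KD values. Region 9, in exon 22, was listed at 2.44 in K562 WT 1, at 2.94 and 6.39 in K562 Control, at 4.05 and 3.03 in K562 RBFOX2 KD and at 2.98 in NB4 RBFOX2 KD 3.

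Other DNMT1 regions named by the rule were listed in K562 only. Region 7, in intron 6, was listed at 3.07 and 2.62 in K562 Control and in no other library. Region 3 was listed at 4.28 and 4.4 in K562 Control and at 5.17 and 2.97 in K562 RBFOX2 KD, and region 2 at 5.03 and 3.58 in K562 WT, 3.96 in K562 Control 1 and 4.68 in K562 RBFOX2 KD 1. Both of these are the uncertain regions shared with S1PR2.

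UHRF1 (chr19:4903080-4962154, plus strand) was marked in every library. It had 2 and 4 peaks in HepG2 WT, 5 and 5 in K562 WT, 3 and 5 in K562 Control, 4 and 4 in K562 RBFOX2 KD, 3, 4 and 3 in NB4 Control and 4, 4 and 5 in NB4 RBFOX2 KD. Region 5, in the 3′ UTR 720 bases past the stop codon (median summit), was listed in all 14 libraries. Its fold was 6.88 and 8.57 in HepG2 WT, 17 and 17.1 in K562 WT, 25.1 and 22.0 in K562 Control, 25.4 and 23.3 in K562 RBFOX2 KD, 13.4, 12.3 and 13.4 in NB4 Control and 9.94, 12.1 and 12.6 in NB4 RBFOX2 KD. As a percentile of -log10 q within its own list, this region stayed between 80.2 and 92.1, so its standing in the list varied less than its fold did.

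Region 1 of UHRF1, in coding exon 2, was missing only from HepG2 WT 1. It had a fold of 4.32 in HepG2 WT 2, 7.20 and 7.05 in K562 WT, 6.56 and 7.49 in K562 Control, 7.18 and 5.28 in K562 RBFOX2 KD, 6.30, 5.26 and 3.62 in NB4 Control and 5.29, 6.36 and 7.09 in NB4 RBFOX2 KD. The groups overlapped. Region 3, in intron 13, behaved otherwise: it was absent from HepG2, at 7.24 and 6.34 in K562 WT, 20.5 and 20.4 in K562 Control, 19.7 and 19.3 in K562 RBFOX2 KD, 2.39, 6.41 and 4.27 in NB4 Control and 3.40, 3.90 and 5.47 in NB4 RBFOX2 KD. All 4 Control and KD libraries of K562 stood far above every other library at this place. Region 2, in coding exon 3, had folds of 2.72 and 3.27 in HepG2 WT and 4.10 and 3.31 in K562 WT, and was otherwise listed at 4.46 in K562 Control 2, 3.50 in NB4 Control 2 and 2.68 and 2.25 in NB4 RBFOX2 KD 1 and 3.

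Of the de novo methyltransferases, DNMT3A (chr2:25227855-25342590, minus strand) carried a single peak per K562 library. It had 4 and 7 peaks in HepG2 WT, 1 in each of the 6 K562 libraries, 4, 4 and 3 in NB4 Control and 9, 5 and 8 in NB4 RBFOX2 KD. That single peak was region 12, whose median summit lay 8 bases past the stop codon and varied by only 17 bases over the 14 libraries. Its fold was 4.88 and 7.43 in HepG2 WT, 15.3 and 14.7 in K562 WT, 19.5 and 14.8 in K562 Control, 19.5 and 25.6 in K562 RBFOX2 KD, 6.89, 8.03 and 7.73 in NB4 Control, and 10.2, 8.23 and 9.46 in NB4 RBFOX2 KD.

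Ranked within lists, region 12 stood lowest in K562, although its fold was highest there. Its percentile was 91.6 and 97.0 in HepG2 WT and 88.5 to 98.8 in NB4, against 80.3 to 88.3 in K562. The local background there was at the genome mean (1.00, the lowest value MACS2 allows) in all 6 K562 libraries, 2.30 and 2.48 times that mean in HepG2 and 3.42 to 5.20 times in NB4, and the height of the peak was 223 to 439 reads in NB4 against 177 to 236 in K562. In HepG2 and NB4 DNMT3A also had intronic and other exonic peaks. Region 9, in intron 6, had folds of 2.80 and 3.03 in HepG2 WT, 6.07 and 4.92 in NB4 Control 1 and 3 and 3.81, 3.56 and 4.93 in NB4 RBFOX2 KD. Region 7, in coding exon 4, had 3.54 and 3.99 in HepG2 WT, 4.01 and 4.59 in NB4 Control 2 and 3, and 4.16 and 4.38 in NB4 RBFOX2 KD 2 and 3. Region 4, in the 5′ UTR, had 1.66 and 3.88 in HepG2 WT, 2.72 in NB4 Control 2, and 2.74 and 4.13 in NB4 RBFOX2 KD 1 and 3. Region 11, in intron 16, was listed only in NB4 RBFOX2 KD, at 3.64, 5.01 and 5.10.

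DNMT3B (chr20:32762385-32809359, plus strand) had peaks from its first exon to its 3′ UTR. It had 0 and 0 peaks in HepG2 WT, 4 and 5 in K562 WT, 3 and 2 in K562 Control, 3 and 3 in K562 RBFOX2 KD, 3, 3 and 3 in NB4 Control and 5, 4 and 3 in NB4 RBFOX2 KD. Region 1 held a summit in the 5′ UTR of exon 1, 169 bases from the gene start, in 11 libraries within 6 bases, and another in intron 1 in 6 libraries. Its highest fold per library was 4.01 and 4.91 in K562 WT, 4.38 and 4.54 in K562 Control, 3.89 in K562 RBFOX2 KD 1, 7.31, 8.80 and 5.25 in NB4 Control and 8.52, 4.41 and 9.70 in NB4 RBFOX2 KD. NB4 Control lay above K562 Control without overlap.

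Region 3 of DNMT3B, in intron 1, was listed at 4.24 and 4.41 in K562 WT, 3.57 in K562 RBFOX2 KD 2, 2.78 and 2.25 in NB4 Control 2 and 3, and 5.07, 2.97 and 3.86 in NB4 RBFOX2 KD. Region 5, in intron 20, was found only in K562, at 2.51 in WT 2, 5.34 and 6.03 in Control and 5.82 and 5.93 in KD. Region 6, in the 3′ UTR, had 3.33 and 3.09 in K562 WT, 6.38 in K562 Control 1, 4.56 and 3.80 in K562 RBFOX2 KD and 2.34 in NB4 RBFOX2 KD 1.

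By mean percentile over the 14 libraries, the strongest member regions were in TET3 (region 17, at 99.2) and TET2 (region 4, at 96.8). The best TET1 region, region 2, was at 87.8, below DNMT3A region 12 at 90.8. TET1 (chr10:68560337-68694487, plus strand) had 5 to 8 peaks in every library, and 3 of its 8 regions were listed in all 14. Region 2, in coding exon 2, had folds of 8.66 and 7.86 in HepG2 WT, 13.1 and 15.1 in K562 WT, 12.2 and 11.4 in K562 Control, 14.2 and 17 in K562 RBFOX2 KD, 11.5, 11 and 10.3 in NB4 Control and 11.7, 11.9 and 10.2 in NB4 RBFOX2 KD. The height of this peak was 376 to 464 reads in K562 and 84 to 162 in NB4, over a local background of 1.77 to 3.47 times the genome mean in K562 and 1.00 in NB4. By percentile every K562 library, at 90.6 to 96.2, stood above every NB4 library, at 74.2 to 86.6.

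Region 3 of TET1 covers coding exon 4, an exon of 2308 bases, with up to 4 peaks per library and 36 in all. Its highest fold was 6.52 and 6.67 in HepG2 WT, 13.2 and 14.9 in K562 WT, 14 and 13.9 in K562 Control, 20.2 and 18.8 in K562 RBFOX2 KD, 8.82, 6.74 and 6.09 in NB4 Control and 8.50, 7.19 and 10.1 in NB4 RBFOX2 KD. Region 8, in the last coding exon 264 bases before the stop codon, had 5.37 and 6.23 in HepG2 WT, 14.2 and 15.2 in K562 WT, 22.2 and 26.5 in K562 Control, 17.9 and 16.9 in K562 RBFOX2 KD, 10.2, 10.4 and 5.65 in NB4 Control and 6.81, 6.35 and 5.79 in NB4 RBFOX2 KD. The K562 KD libraries lay below the K562 Control libraries at region 8, while the NB4 groups overlapped. Regions 5 and 6, in introns 4 and 5, were listed in all 6 K562 libraries and in no other: region 5 at 5.12 and 5.83 in WT, 6.98 and 7.59 in Control and 9.16 and 9.34 in KD, region 6 at 4.31 and 4.35, 6.86 and 12.8, and 13.2 and 6.03. Region 1, in the 5′ UTR, was listed at 3.3 and 2.1 in K562 WT and 4.28 and 4.57 in K562 Control only.

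TET2 (chr4:105145875-105279816, plus strand) had 4 to 9 peaks in every library. Its region 4, in coding exon 3, an exon of 3455 bases, held a summit 4466 bases before the stop codon in all 14 libraries within 41 bases. The fold there was 8.69 and 7.33 in HepG2 WT, 19.0 and 26.1 in K562 WT, 32.6 and 29.4 in K562 Control, 34.9 and 42.8 in K562 RBFOX2 KD, 13.4, 19.8 and 21.2 in NB4 Control and 20.8, 23.4 and 28.0 in NB4 RBFOX2 KD. Its percentile was 94.7 or higher in 13 libraries and 86.4 in NB4 Control 1. Further summits in the same exon differed by line: one 3816 bases before the stop codon was found in all 6 NB4 libraries and 1 K562 Control library, and one at 2832 bases in 5 NB4 libraries only.

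The other TET2 regions found in every library were region 3, also in exon 3, and region 7, in the last coding exon. Region 3 had 3.41 and 4.77 in HepG2 WT, 5.06 and 5.63 in K562 WT, 6.55 and 8.97 in K562 Control, 6.92 and 6.50 in K562 RBFOX2 KD, 4.71, 6.04 and 6.25 in NB4 Control and 7.13, 7.16 and 5.33 in NB4 RBFOX2 KD. Region 7 had 4.19 and 4.58, 5.62 and 5.89, 6.04 and 9.69, 6.73 and 6.27, 3.50, 9.62 and 9.96, and 8.29, 7.6 and 11.4 in the same order. Neither region separated KD from Control. Region 1, upstream of the canonical transcript, was listed at 7.24 and 6.72 in K562 WT, 3.05 in K562 Control 1, 3.27 in NB4 Control 3 and 3.86 in NB4 RBFOX2 KD 3.

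TET3 (chr2:73984910-74108176, plus strand) was the most heavily marked member in NB4. It had 7 and 10 peaks in HepG2 WT, 4 and 4 in K562 WT, 6 and 8 in K562 Control, 6 and 5 in K562 RBFOX2 KD, 13, 12 and 12 in NB4 Control and 14, 13 and 9 in NB4 RBFOX2 KD. Region 17, in the last coding exon 611 bases before the stop codon, was the top-ranked member region, with percentiles of 96.9 to 99.9. Its fold was 5.96 and 9.06 in HepG2 WT, 26.9 and 30.1 in K562 WT, 44.9 and 29.7 in K562 Control, 38.7 and 47.2 in K562 RBFOX2 KD, 18.2, 16.0 and 10.1 in NB4 Control and 18, 13.9 and 18 in NB4 RBFOX2 KD.

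TET3 region 1, at the end of the 5′ UTR and the start of the coding sequence in exon 2 had the widest gap between NB4 and K562 of the member regions tested. Its fold was 5.34 and 8.29 in HepG2 WT, 18 and 23.3 in K562 WT, 33.2 and 35.5 in K562 Control, 36.4 and 45.2 in K562 RBFOX2 KD, 4.77, 4.19 and 2.55 in NB4 Control and 5.93, 4.57 and 6.39 in NB4 RBFOX2 KD. The height of the peak, not scaled to depth, differed less, with 298 to 376 reads in NB4 and 381 to 442 in K562. The local background was 4.86 to 12.6 times the genome mean in NB4 and 1.00 to 1.47 times in K562. The summit also sat elsewhere: 5524 to 5582 bases before the stop codon in NB4, 5323 to 5483 in HepG2 and in 5 K562 libraries, and 5582 in K562 RBFOX2 KD 2.

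**Figure D2:**
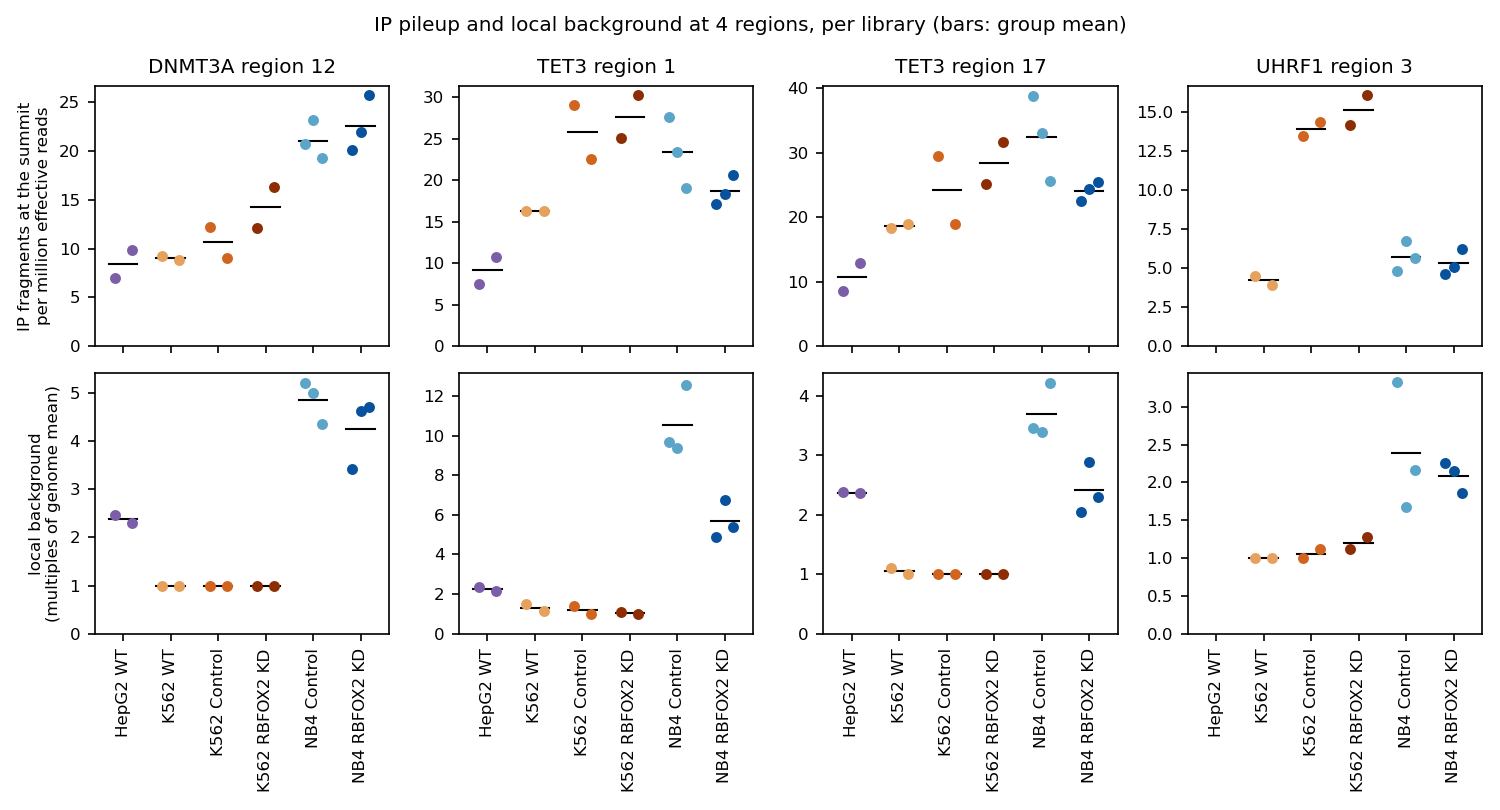
Immunoprecipitated fragments at the summit per 1000000 reads (upper panels) and local background in multiples of the genome mean (lower panels) at 4 member regions, 1 point per library and a bar at each group mean. For TET3 region 1 the background was 4.86 to 12.6 in NB4 and 1.00 to 1.47 in K562, and for DNMT3A region 12 it was 3.42 to 5.20 in NB4 and 1.00 in K562.

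Region 7 of TET3, in coding exon 4, had folds of 2.82 and 5.08 in HepG2 WT, 8.90 and 13.7 in K562 WT, 13.4 and 27.0 in K562 Control, 30.5 and 21.8 in K562 RBFOX2 KD, 8.95, 8 and 9.4 in NB4 Control and 8.29, 8.93 and 8.86 in NB4 RBFOX2 KD. A further summit in this exon, 3041 bases before the stop codon, was found in all 6 NB4 libraries, 1 HepG2 library and 1 K562 Control library. Region 4, in intron 2, was listed in all 14 libraries at 4.47 to 17. Several TET3 intron regions were NB4 peaks: region 5, in intron 3, had 11.9, 6.07 and 10.4 in NB4 Control and 5.69, 7.34 and 6.98 in NB4 RBFOX2 KD, and region 14, in intron 10, had 4.51, 6.52 and 5.56 and then 4.78, 5.50 and 7.48. Neither was listed in another line.

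Region 9 of TET3, in intron 4, was shared by HepG2 and NB4, with 3.03 and 3.48 in HepG2 WT, 6.07, 8.41 and 6.49 in NB4 Control and 5.84, 4.63 and 6.63 in NB4 RBFOX2 KD. Region 3, in intron 2, was listed at 3.60, 4.31 and 3.98 in NB4 Control and 3.05 in NB4 RBFOX2 KD 2. Region 16, in coding exon 11, was listed only in HepG2 WT, at 1.89 and 3.23. Region 18, in the 3′ UTR, was listed in 11 libraries, at 3.25 and 3.04 in HepG2 WT, 4.51 and 6.01 in K562 Control, 4.12 and 5.20 in K562 RBFOX2 KD, 3.86 and 5.49 in NB4 Control 1 and 2 and 3.97, 3.33 and 7.17 in NB4 RBFOX2 KD, and it was missing from K562 WT.

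**Figure D3:**
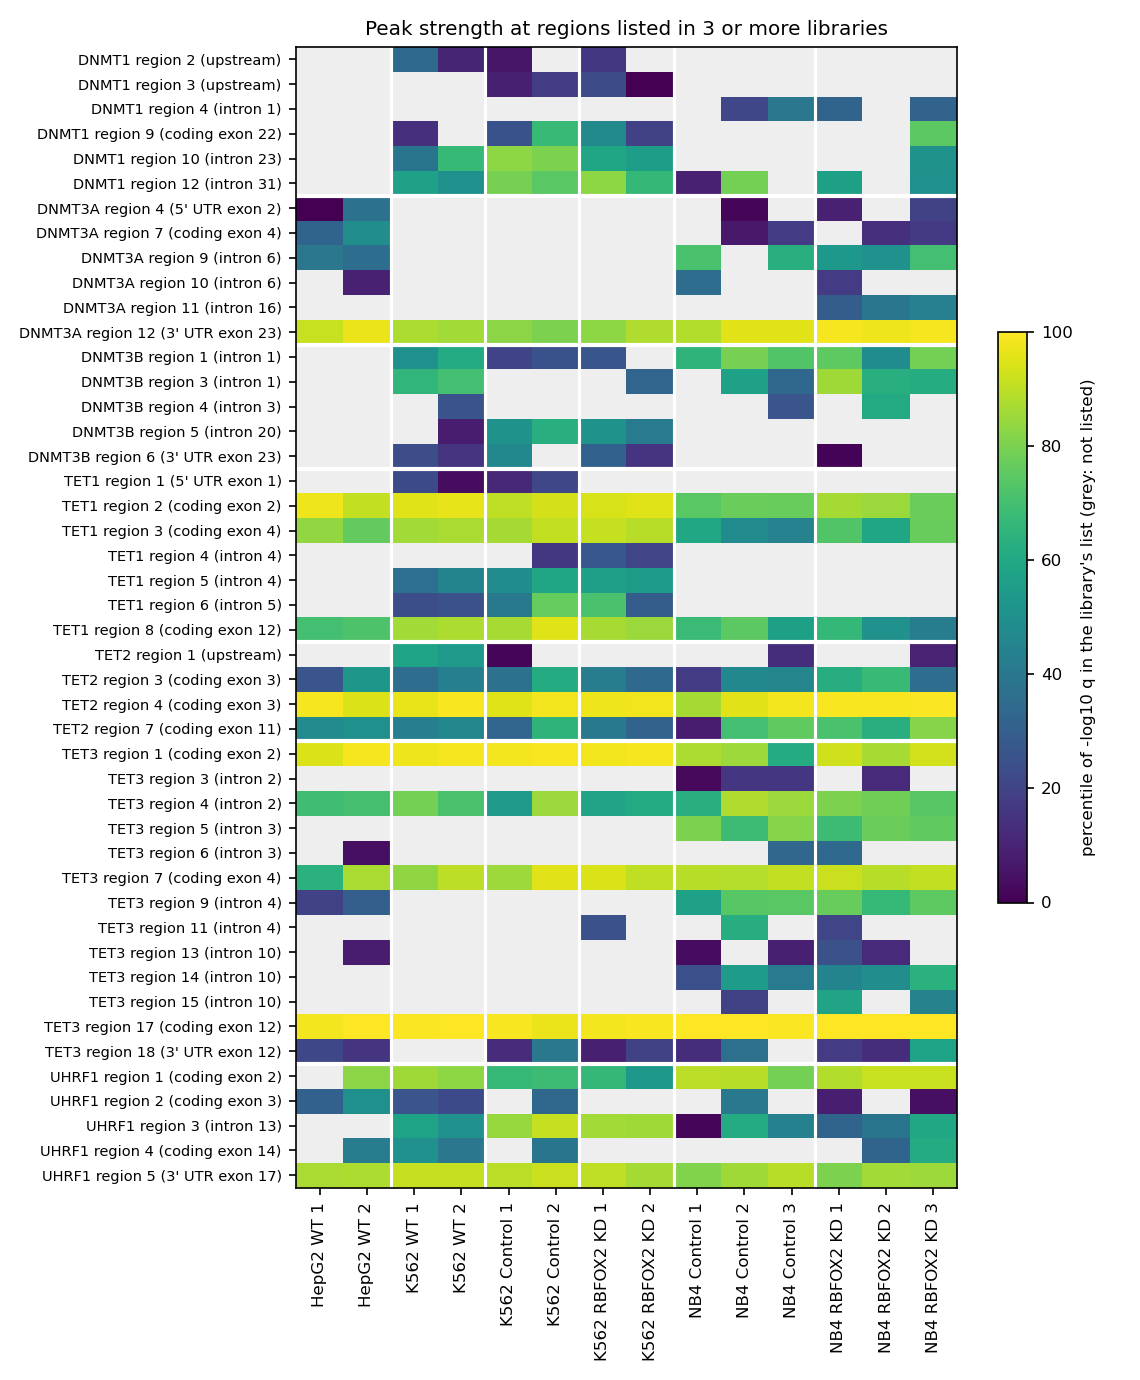
Percentile of -log10 q within each library's list (colour scale from 0 to 100) for the member regions listed in 3 or more libraries, with regions in rows and libraries in columns, grey where not listed. TET3 region 17 was at 96.9 to 99.9 in all libraries, and DNMT1 and DNMT3B regions were grey in both HepG2 columns.

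**Figure D4:**
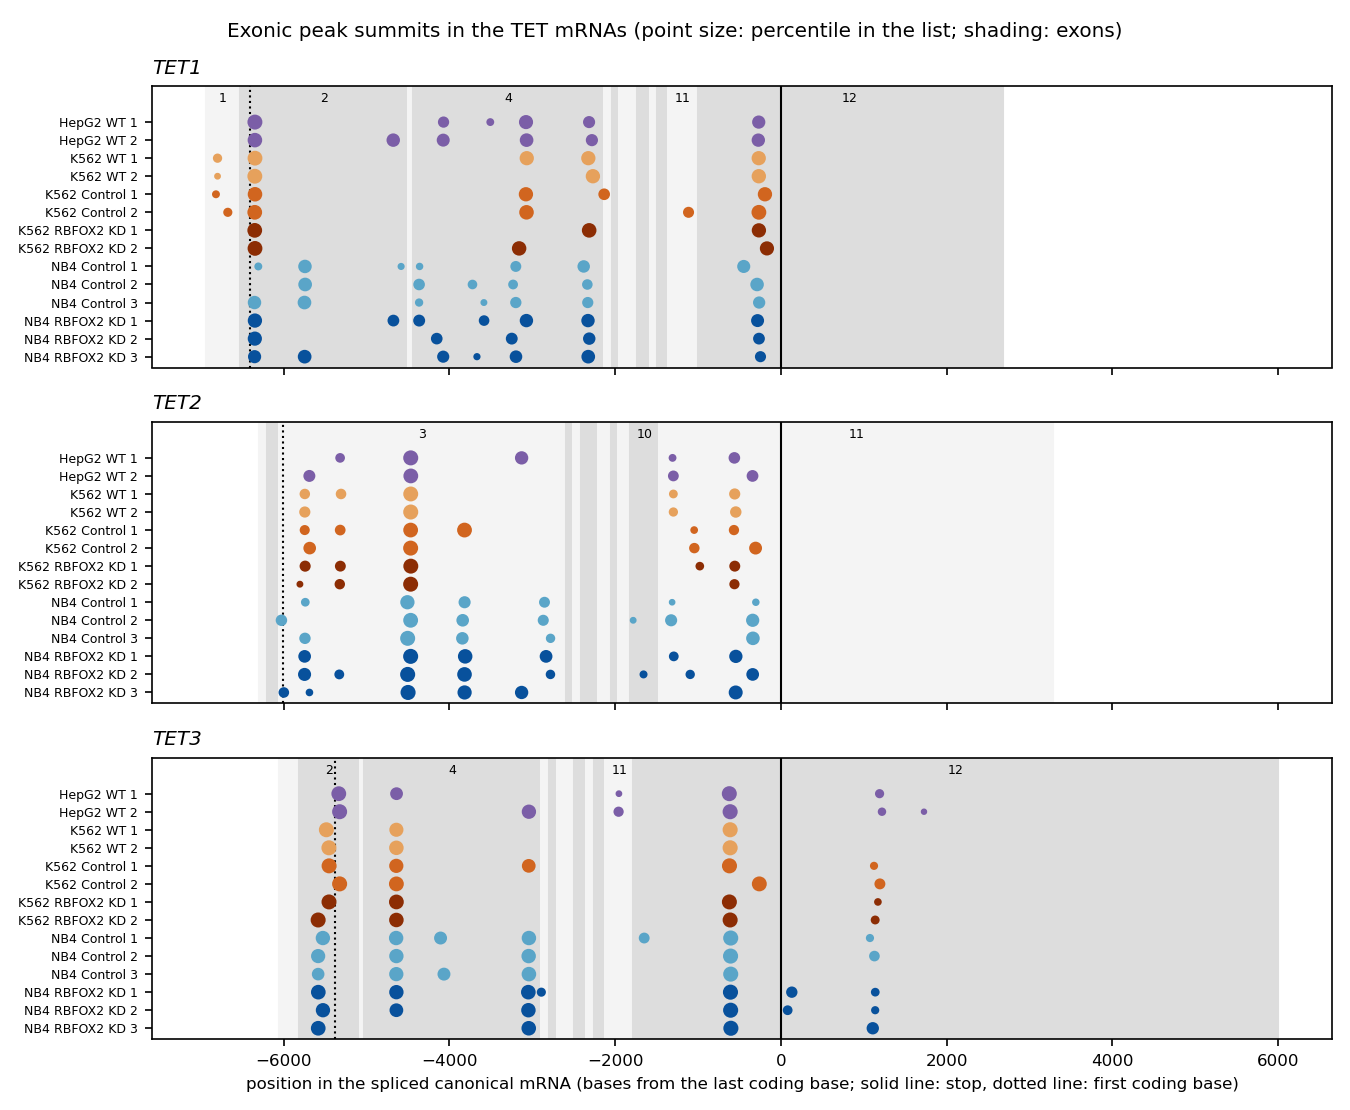
Exonic summits along the TET1, TET2 and TET3 mRNA (horizontal axis, bases from the stop codon) in each library (vertical axis), with point size for the percentile in the list and shading for exons, some of them numbered. The TET2 summit 4466 bases before the stop codon appeared in all 14 libraries, and the one at 2832 bases in 5 NB4 libraries only.

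Peaks on the strand opposite to the members were few, 8 in 6 regions, of which 4 were in TET3 and 2 in TET1. The highest-ranked was TET3 opposite region 3, in HepG2 WT 1 and 2 and K562 Control 2. The TET1 opposite region of highest mean percentile was region 2, in K562 WT 1 only.

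RBFOX2 KD was compared with Control first in K562. Member peaks averaged 29.5 in KD and 34.5 in Control, a difference of -5, with a pooled SD of 1.58. An exact permutation test, two-sided, gave p = 0.333, which is the smallest that 2 against 2 libraries allow. Peak counts of DNMT1 were lower in both KD libraries than in both Control libraries, and no member was higher. Among 9771 genes, 5.41% were lower without overlap and 3.50% higher; the members counted 1 of 7 and 0 of 7. Of 39 member regions, 2 were listed in both Control libraries and in neither KD library, DNMT1 region 7 and TET1 region 1, and 0 the other way. Among all regions 1.71% and 1.73% did so. Without K562 Control 1 the count of 2 became 9 and without K562 Control 2 it became 4. The rule then asked for presence in the remaining Control library only, so this count could only stay or rise.

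At the 22 member regions listed in all 4 of these libraries, log2 summit fold was compared by limma after centring each library on its median. None passed an adjusted p of 0.05 by Benjamini-Hochberg adjustment over all 24783 regions, of which 0% passed and 969 had an unadjusted p under 0.05. The widest gap among the members was at DNMT1 region 10, with a log2 difference of -1.07 (95% interval -1.81 to -0.33, adjusted p = 0.9994 by limma). TET1 region 8 was at -0.59 (-1.11 to -0.07, adjusted p = 0.9994 by limma). Before centring, both KD folds lay below both Control folds at these 2 regions and at UHRF1 region 3, and above them at TET1 regions 2, 3 and 5, TET2 region 4, TET3 region 1 and, by less than the printed digits, DNMT3A region 12. The share of all 24783 regions that separate in this way was not counted. Without centring the median log2 difference of all of them was 0.11. No result about the members is drawn from these separations. With 2 libraries a group, a count of 0 does not show that no region changed, and 1060 of all regions passed without K562 Control 1 and 47 without K562 Control 2.

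In NB4 the member peaks averaged 44.7 in KD and 37.7 in Control, a difference of 7 with a pooled SD of 3.85. The exact permutation test, two-sided, gave p = 0.200, and 0.100 is the lowest that 3 against 3 can reach. Scaled to 10000 peaks of each list, the difference was -0.20, since KD lists were longer. DNMT3A counts were higher in all KD libraries than in all Control libraries, and 0 members were lower. Among 9954 genes, 9.38% were higher and 1.66% lower without overlap. Per 10000 peaks, DNMT3A had 2.26, 1.33 and 2.18 in KD and 1.35, 1.25 and 0.896 in Control, so the groups overlapped on that scale. DNMT3A region 11 was listed in all 3 KD and no Control library, 1 of 54 member regions, against 3.52% of all regions, and 0 went the other way against 0.619%.

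At the 18 member regions in all 6 NB4 libraries, no log2 fold difference passed the adjusted p, and 0% of 17040 regions did, with 2403 at an unadjusted p under 0.05. The widest gaps were at TET3 region 1, at 0.58 (-0.02 to 1.19, adjusted p = 0.370 by limma), and TET3 region 5, at -0.46 (-1.09 to 0.16, adjusted p = 0.478 by limma). The fit did not detect a change of any member, and intervals of this width do not show that none occurred. Before centring, DNMT3A region 12 was the one member region whose KD folds all lay above the Control folds, and at no member region did they all lie below. The adjusted p of DNMT3A region 12 was 0.574 by limma. The share of all 17040 regions that separate in this way was not counted, so no result about the members is drawn from it.

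**Figure D5:**
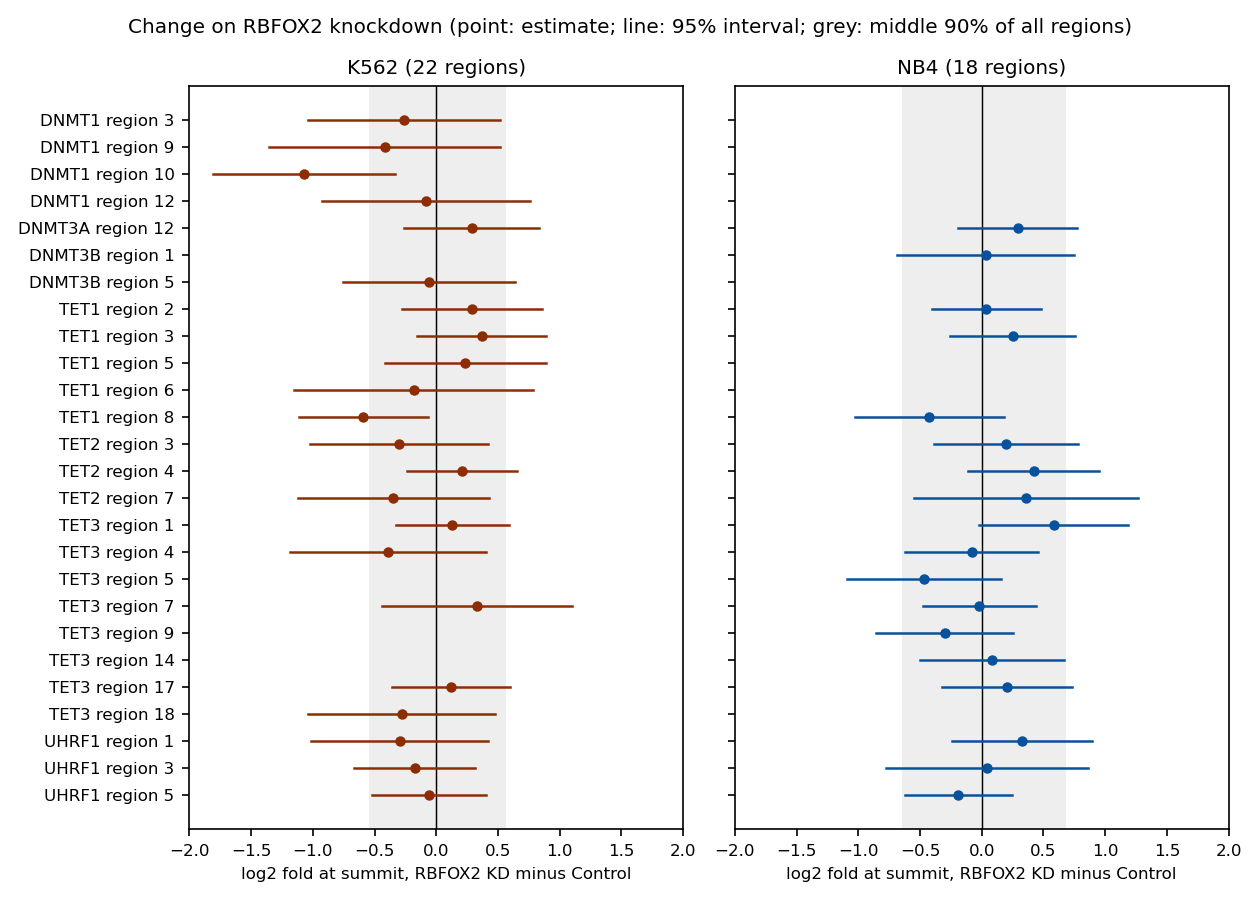
Log2 difference in summit fold, RBFOX2 KD minus Control (horizontal axis, points with 95% intervals over a grey band that holds most regions tested), for the member regions listed in every library compared, in K562 and in NB4. DNMT1 region 10 in K562 was the lowest at -1.07, and TET3 region 1 in NB4 the highest at 0.58. None passed the adjusted threshold.

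For both lines together, the mean of the 2 differences in member peaks was 1.00 (exact permutation within lines, two-sided, p = 0.767, smallest possible 0.0167). None of 14 member regions in the joint limma fit passed, and 0% of 10535 did, with 865 at an unadjusted p under 0.05. TET1 region 8 was lowest, at -0.51 (-0.93 to -0.10, adjusted p = 0.564 by limma), and TET3 region 1 was highest, at 0.35 (-0.06 to 0.76, adjusted p = 0.645 by limma).

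The K562 change in member peaks was 12 lower than the NB4 change (exact permutation within lines, two-sided, p = 0.0333). The permutation exchanged KD and Control labels within each line. A small p can thus come from either line alone, and it does not test whether the changes differ. Per 10000 peaks of the list the same contrast was -1.004 (p = 0.433) and at equal list sizes -2.50 (p = 0.367), both by the same exact permutation. Without NB4 RBFOX2 KD 1 it was -9.33 (p = 0.050 by exact permutation). With list length taken into account the contrast did not pass, and no member region passed in the limma fit of the interaction, where 801 of 10535 regions had an unadjusted p under 0.05.

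K562 WT was compared with HepG2 WT as unmodified cells of different tissue. Member peaks averaged 31.5 in K562 and 27.5 in HepG2, a difference of 4 (p = 0.667 by an exact permutation, two-sided, where 0.333 is the lowest reachable). The direction depended on the scale: per 10000 peaks the difference was -3.74 and at equal list sizes -7.00, while lists brought to equal depth gave 5 and peaks with a -log10 q of at least 5 gave 6. DNMT1, DNMT3B and UHRF1 were higher without overlap in K562, against 46.7% of 11196 genes, and DNMT3A and TET3 lower, against 13.2%. Per 10000 peaks, UHRF1 had 1.13 and 1.15 in K562 WT and 0.881 and 1.46 in HepG2 WT, so its groups overlapped on that scale. The other genes named here stayed apart on it. Of 40 member regions, 11 were in both K562 WT libraries and neither HepG2 library, 27.5% against 37.7% of all regions. They were DNMT1 regions 2, 10 and 12, DNMT3B regions 1, 3 and 6, TET1 regions 1, 5 and 6, TET2 region 1 and UHRF1 region 3. Another 6 were in both HepG2 libraries only, 15% against 10.3%, namely DNMT3A regions 4, 7 and 9 and TET3 regions 9, 16 and 18.

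In the limma fit of 12860 regions listed in all 4 WT libraries, 15% were higher and 17.8% lower in K562. TET3 region 17 was higher by 0.90 (adjusted p = 0.0124 by limma), and UHRF1 region 2, TET2 region 7 and TET2 region 3 were lower by -0.74, -0.66 and -0.64 (adjusted p = 0.0381, 0.0301 and 0.0476 by limma). Without centring each library, the median of all regions moved by 1.05 and these 3 lower values turned to 0.31, 0.39 and 0.40, so their direction depends on the scaling. As percentiles in the list, none of the 4 passed. TET3 region 17 was at 1.95 without centring, and its adjusted p by limma was 0.0684 without K562 WT 1 and 0.0941 without K562 WT 2. UHRF1 region 2 and TET2 region 7 did not pass when any 1 of the 4 libraries was left out, with adjusted p of 0.0787 to 0.193 and 0.0514 to 0.154 by limma, and TET2 region 3 passed only when HepG2 WT 1 was the library left out, with 0.134 to 0.216 for the others. Without centring, 9670 regions were higher and 186 lower, against 1932 and 2285 when centred and 3336 and 1118 by percentile.

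NB4 Control was compared with K562 Control. K562 Control also enters the KD comparison and the next one, so these results share libraries. Member peaks averaged 37.7 in NB4 and 34.5 in K562, a difference of 3.17 (p = 0.200 by an exact permutation, two-sided, where 0.100 is the lowest reachable), and counted as merged regions the difference was -2.67. DNMT3A and TET3 had more peaks in NB4 without overlap, against 18.4% of 11219 genes, and DNMT1 had fewer, against 24%. In all NB4 Control but neither K562 Control library were 4 of 58 member regions, 6.90% against 10.2% of all, TET3 regions 3, 5, 9 and 14. The other way there were 8, 13.8% against 20.5%: DNMT1 regions 3, 7, 9 and 10, DNMT3B region 5 and TET1 regions 1, 5 and 6. Without K562 Control 1 the latter count was 15.

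In limma, 13.0% of 11508 regions were higher and 11.5% lower in NB4. TET3 region 1 was lower by -2.44 (-3.12 to -1.755, adjusted p = 0.00116 by limma), UHRF1 region 3 lower by -1.57 (-2.45 to -0.68, adjusted p = 0.0174 by limma) and DNMT3B region 1 higher by 1.42 (0.73 to 2.105, adjusted p = 0.00914 by limma). By percentile the TET3 region 1 difference had an adjusted p of 0.0585 in limma, and without centring DNMT3B region 1 was at 0.64 with an adjusted p of 0.112 in limma. UHRF1 region 3 did not pass without K562 Control 1 or K562 Control 2 (adjusted p = 0.103 and 0.121 by limma), nor did DNMT3B region 1 without K562 Control 1 (0.0870), while TET3 region 1 passed whichever library was left out. Values behind the TET3 result are those given above: height differed little and local background much. The part of that background in the result was not tested. Without centring, 363 regions were higher and 5614 lower, against 1492 and 1318 when centred and 1169 and 1702 by percentile.

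K562 Control was compared with K562 WT to show how far they lie apart; the virus and any difference in handling cannot be told apart. Member peaks averaged 34.5 and 31.5, a difference of 3 (p = 0.333 by an exact permutation, two-sided, the lowest reachable). DNMT1 and TET3 were higher in Control without overlap, against 9.60% of 10577 genes, and DNMT3B was lower, against 24.1%. Of 39 member regions, DNMT1 regions 3 and 7 and TET3 region 18 were in both Control but neither WT library, 7.69% against 5.28% of all, and DNMT3B region 3 the other way, 2.56% against 15%. Without K562 Control 1 the first count was 9.

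Of 23473 regions tested by limma, 1.33% were higher and 1.34% lower in Control. UHRF1 region 3 was the only member to pass, higher by 1.28 (0.80 to 1.75, adjusted p = 0.0421 by limma). Its peak height per 1000000 reads was 4.22 ± 0.39 (SD, n = 2) in K562 WT and 13.9 ± 0.65 in K562 Control, and its local background was near the genome mean in both. Leaving out K562 WT 1 or WT 2 left 1 and 0 called regions of all those tested, and UHRF1 region 3 then had an adjusted p of 0.234 and 0.288 by limma.

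The 24 other genes of DNA methylation were chosen by role. In K562, 27 regions of 13 of these genes were tested for KD against Control, and 0 passed higher and 0 lower, as for the 21 regions in NB4 and the 19 in both lines. Between K562 WT and HepG2 WT, 2 of 23 were higher and 3 lower, 21.7% called against 32.8% of all regions, with MBD4, a glycosylase that reads methylated DNA, at -1.40 and MBD1, a methyl-CpG binding protein, at 0.82. In NB4 against K562 Control, 1 of 19 was higher and 5 were lower, 31.6% called against 24.4% of all regions, among them OGT, a glycosyltransferase that binds TET proteins, at -1.90. Between K562 Control and WT, 1 of 26 passed, OGT at 1.202. Their medians were -0.06 and -0.43 in the 2 line comparisons, and all these log2 differences are on the centred scale. HELLS, CDCA7, PCNA, DNMT3L and CXXC4 had no peak in any library. ZBTB38, a methyl-CpG reader, had peaks in 8 libraries and in 0 of the 6 NB4 libraries. USP7, which stabilises DNMT1, had 0 peaks in NB4 Control and 1 in each of the 3 NB4 RBFOX2 KD libraries, whose lists were longer and in which 9.38% of genes had more peaks without overlap.

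Finally, genes with the most similar pattern to each member were sought among 12627 genes, by distance of the percentile of the strongest peak over the 14 libraries. TET3 was nearest to SCAF1 (distance 1.66) and CTDP1 (1.75), genes that like TET3 ranked near the top in all libraries. TET2 was nearest to MPHOSPH10 (6.51) and PAN3 (6.97), UHRF1 to FAM120B (7.78) and ULK1 (9.03), TET1 to CCDC186 (11.3) and USP54 (14.1), and DNMT3A to TECPR2 (11.4) and INPP4A (12.9). DNMT3B, at 27.4 from SLC44A2 and 28.3 from DEF6, and DNMT1, at 27.6 from HUS1B and 52.0 from DIAPH3, had the most distant neighbours. A distance builds up over the 14 libraries, so it is larger than the mean gap per library on the scale of 0 to 100. That mean gap was 5.44 and 5.36 for the DNMT3B neighbours and 5.62 and 10.1 for the DNMT1 neighbours, in the same order. These distances are descriptions over libraries that share depth and line.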

How the data were processed

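Members and lists were chosen with earlier results of these data known. The authors trimmed reads with Trimmomatic 0.39, aligned them to hg38 with HISAT2 2.1.0, separated strands with SAMtools 1.9 and called peaks per library with MACS2 (GENCODE 29, 150-base extension, up to 5 duplicates, q under 0.01). Each deposited list gives a peak score, the fold over local background at the summit (a ratio), significance as -log10 of the p-value and of the q-value, and the summit offset. The 14 input libraries have no list and were not analysed here. Here, summits were assigned to GENCODE 44 genes, the lists holding no gene names. Overlapping peaks (1 base or more) were merged. Heights and depth were recovered from fold and p, assuming the stated genome size of 130000000. Pileups were whole reads within 0.05 in 11 lists, and rescaled in HepG2 1, HepG2 2 and NB4 Control 3. Whether input served as the control is not given in the sources used here.

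Log2 fold was centred per library and tested with limma 3.58.1 (R 4.3.3) with Benjamini-Hochberg adjustment over all regions listed in every library, at 0.05. Member peaks were tested by exact permutation. Regions named were the 3 strongest in each gene, those listed in all libraries of 1 group and none of another, and those past the threshold. The 24 further genes were fixed by role. In simulated data with planted log2 differences of 1 and 2, the fits of KD against Control in K562 and of K562 Control against WT recovered 0%. Recovery was 19% and 74% for KD in NB4, and 63% and 98% for both lines. It was 12% and 57% for K562 WT against HepG2, and 1% and 59% for NB4 against K562 Control. The real fit of K562 Control against WT called 628 regions, so these shares need not hold for the real values. A missing call in the fits with 0% carries little weight. Same-numbered libraries did not deviate together (correlations -0.11 to 0.03), so numbers do not pair them. Alternatives were list threshold, list size, depth, window, scale, centring, percentile, replicate left out and the block.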

Additional observations from a re-analysis of the deposited data

Results flagged for a closer look

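The change in member peaks on RBFOX2 KD differed between K562 and NB4 by -12 peaks (exact permutation within lines, two-sided, p = 0.0333), which passed the threshold. It was drawn out because both lines had the same contrast and their changes had opposite signs: K562 KD libraries held 31 and 28 member peaks against 34 and 35 in Control, and NB4 KD libraries 50, 40 and 44 against 37, 40 and 36. NB4 KD lists held 36777 to 39803 peaks and NB4 Control lists 29609 to 33497. Per 10000 peaks the difference was -1.004 (p = 0.433 by exact permutation). On that scale the mean was lower in KD in both lines, at 7.94 against 9.15 in K562 and 11.7 against 11.9 in NB4. The permutation exchanged KD and Control labels within each line, so a small p can come from either line alone. It does not test whether the changes differ.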

How the results depend on the processing

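Of 328 alternatives over 34 results, 251 were labelled as unchanged, 36 moved, 31 were weaker and 10 turned direction. For results that are counts of regions, unchanged means only that the count stayed close to its main value. Neither direction nor threshold enters there. For member peaks compared between a pair of groups, the smallest p that the exact permutation allows was 0.333 or 0.100. Such tests could not pass the threshold under any alternative, so the 251 is not a measure of robustness. For member peak counts, scaling per 10000 peaks gave -0.20 for KD in NB4, -3.74 for K562 WT against HepG2 and -0.71 for KD in both lines. Equal list sizes gave -7.00 and -0.25 for the latter pair, and merged regions -2.67 for NB4 against K562 Control. Leaving out libraries gave -0.33 (without NB4 RBFOX2 KD 1) to 2.17 for both lines. The K562 minus NB4 change was -2.50 at equal list sizes and -1.004 per 10000 peaks, and with the replicate block it was -12 with p = 0.125 by exact permutation. Without single libraries it ran from -14.3 to -9.33 and lost the threshold without K562 Control 2, NB4 RBFOX2 KD 1, NB4 Control 1 or NB4 Control 3.

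Counts of regions in only 1 group changed when summits within 150 bases were used: 1 and 1 for K562 (KD only, Control only), 8 for NB4 Control only and 3 for K562 WT only. Leaving out 1 library gave 1 for K562 KD only, up to 9 for K562 Control only, 2 to 3 and 1 for NB4, 6 to 11 for HepG2 only, up to 7 and 15 for NB4 and K562 Control only, and up to 9 and 2 to 4 for K562 Control and WT only. A rule over fewer libraries is easier to meet, so these counts could only stay or rise. Region calls by limma, 0 for KD in K562, were 2 with the replicate block, 1060 without K562 Control 1 and 47 without K562 Control 2. Called regions were 9856, 5977 and 2863 without centring for K562 WT against HepG2, NB4 against K562 and K562 Control against WT, and 1450 by percentile for the last. Leaving out 1 library gave 504 to 4195, 631 to 2449 and 0 to 5726. UHRF1 region 2, TET2 region 3 and TET2 region 7 turned to 0.31, 0.40 and 0.39 without centring. The causes were not tested. The depth of each list limits which weak regions can be seen.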
